A study of Homo sapiens with 6 samples.

Results

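S phase is the part of the cell cycle in which the genome is copied, and 37 genes of that process were followed in MDA-MB-231 cells, a mesenchymal, hormone receptor-negative human breast cancer line, after knockdown of calreticulin (CALR). The members are the 37 rows, of 31582 genes in the deposited count table, whose symbol stands on a fixed list of G1/S regulators, origin licensing factors, helicase subunits, polymerases, clamp and clamp loader subunits, nucleotide-supply enzymes and related genes. The 3 libraries of the CALR knockdown group came from cells carrying an shRNA against CALR (shCALR), and the 3 libraries of the control group from MDA-MB-231-NTC cells, with serum in the medium of both and harvest at about 70% confluency. The labels do not say which shRNA sequence was used, whether the cells were a clone or a pool, or whether replicate libraries were separate cultures, so the p-values cover only the spread between these libraries. Polyadenylated RNA was sequenced with a strand-specific kit.

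DNA replication starts in G1, when the origin recognition complex with CDC6 and CDT1 loads the ring of MCM2 to MCM7 onto DNA. Cyclin E with its kinase, and E2F transcription factors released from the retinoblastoma protein, open S phase. CDC45 and the GINS complex then turn the MCM ring into the active helicase, and polymerases held by the sliding clamp PCNA copy the strands. Transcripts of most of these genes peak around the G1/S boundary, so in a culture of mixed phases their level depends both on how many cells are in S phase and on how much RNA each such cell holds, and bulk libraries cannot tell these apart.

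Many S phase genes carry E2F-type letters in their promoters, and the deposited symbols allowed this to be read for 33 of the 37 genes in RefSeq's promoter table (GRCh38.p14, 250 bases before to 50 after a gene's start). MCM4, MCM5, GINS4 and CCNE2 had no entry. The letters TTTCCCGC, TTTCGCGC, TTTGCCGC or TTTGGCGC on either strand were in the first listed window of 19 of the 33 (57.6%), against 3.33% of first windows of 27305 genes. Among 59 other replication genes the share was 23.7%, and among 21 G2/M genes 14.3%. TTTGAA, the letters of the CHR element known from G2/M promoters, stood in 1 of the 33 windows (3.03%) against 71.4% of the G2/M windows and 15.4% of all first windows. CCAAT stood in 57.6% of the 33 windows, 90.5% of the G2/M windows and 35.7% of all. A match describes letters only. The windows below are those of 3 genes with the smallest unadjusted p among those in the table (RFC5, RFC2, LIG1), 2 helicase genes (MCM2, MCM3), and RFC3, which was added after its values were seen because its ratio to RFC5 is described later. Capitals mark the E2F-type letters on either strand, and a window with no capitals has none of them.
RFC5, chr12:118016453-118016752, plus strand: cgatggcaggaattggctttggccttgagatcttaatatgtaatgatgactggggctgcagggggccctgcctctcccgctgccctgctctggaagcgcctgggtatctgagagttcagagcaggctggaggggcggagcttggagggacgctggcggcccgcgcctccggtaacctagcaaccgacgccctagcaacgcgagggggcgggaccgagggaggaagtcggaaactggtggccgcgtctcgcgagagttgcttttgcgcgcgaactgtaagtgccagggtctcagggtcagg
RFC2, chr7:74254350-74254649, minus strand: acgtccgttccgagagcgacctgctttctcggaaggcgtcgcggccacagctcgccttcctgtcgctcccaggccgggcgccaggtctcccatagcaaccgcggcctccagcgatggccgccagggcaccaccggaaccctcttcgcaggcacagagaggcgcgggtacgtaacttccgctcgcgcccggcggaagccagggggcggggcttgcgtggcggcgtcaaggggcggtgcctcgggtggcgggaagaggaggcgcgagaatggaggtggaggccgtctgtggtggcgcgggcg
LIG1, chr19:48170295-48170594, minus strand: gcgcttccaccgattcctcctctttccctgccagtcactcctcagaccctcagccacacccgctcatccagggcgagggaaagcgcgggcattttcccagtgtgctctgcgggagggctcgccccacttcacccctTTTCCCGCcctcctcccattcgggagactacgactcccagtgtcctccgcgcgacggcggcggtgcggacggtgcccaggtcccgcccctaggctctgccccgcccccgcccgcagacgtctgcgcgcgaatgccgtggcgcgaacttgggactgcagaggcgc
MCM2, chr3:127598161-127598460, plus strand: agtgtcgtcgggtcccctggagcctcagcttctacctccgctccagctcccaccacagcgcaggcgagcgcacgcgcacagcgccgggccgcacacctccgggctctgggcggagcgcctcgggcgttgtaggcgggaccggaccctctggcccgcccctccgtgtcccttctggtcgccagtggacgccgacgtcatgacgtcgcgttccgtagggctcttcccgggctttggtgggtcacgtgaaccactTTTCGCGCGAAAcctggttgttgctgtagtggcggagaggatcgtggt
MCM3, chr6:52284693-52284992, minus strand: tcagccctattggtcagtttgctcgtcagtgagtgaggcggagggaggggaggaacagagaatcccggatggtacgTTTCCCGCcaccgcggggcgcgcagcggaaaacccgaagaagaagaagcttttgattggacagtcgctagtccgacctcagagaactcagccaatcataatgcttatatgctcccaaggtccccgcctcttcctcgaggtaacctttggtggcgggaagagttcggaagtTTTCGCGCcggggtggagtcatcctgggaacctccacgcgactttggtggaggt
RFC3, chr13:33817899-33818198, plus strand: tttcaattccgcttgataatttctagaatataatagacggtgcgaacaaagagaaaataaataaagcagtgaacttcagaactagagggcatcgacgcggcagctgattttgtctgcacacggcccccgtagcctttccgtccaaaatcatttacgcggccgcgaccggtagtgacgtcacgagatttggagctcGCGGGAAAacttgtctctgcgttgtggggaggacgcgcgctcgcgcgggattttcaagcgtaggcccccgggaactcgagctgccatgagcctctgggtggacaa
The LIG1 and RFC3 windows hold 1 match each, MCM2 and MCM3 hold 2 each, and the 2 matches of MCM2 overlap. In the comparison of knockdown with control, the median log2 fold change was 0.24 for the 19 genes with such letters and 0.31 for the 14 without, a difference that was not tested.

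Library totals lay between 34639090 and 42425310 counts, and 16394 genes were tested. CALR was at 47.5%, 6.39% and 10.6% of its control mean in CPM in knockdown replicates 1, 2 and 3. CPM here means counts scaled by library size and TMM factors, unless library size alone is named. The log2 fold change of CALR was −2.22, for which edgeR's quasi-likelihood test gave an adjusted p of 0.209. The mesenchymal markers VIM, CD44, AXL, MSN and CAV1 were each at 52.95 FPKM (the authors' unit, scaled by gene length and library size) or more in every library. Of 4 luminal markers, ESR1 and PGR were at 0.14 FPKM or less, and GATA3 was the 1 that reached 1 FPKM in all 6 libraries (2.76, 3.49 and 2.50 FPKM in knockdown, 1.93, 2.60 and 2.26 FPKM in control, unadjusted p = 0.0478 in edgeR). Of 5 blood markers, HBB was absent from the deposited values and CD68 alone reached 1 FPKM in all 6 libraries. Among 5 fibroblast and endothelial markers LUM alone did. The difference from control rose with GC content of the gene in knockdown replicates 1 and 3, by 0.23 and 0.37 on the log2 scale per 10 percentage points of GC, and fell by 0.15 in replicate 2, where the controls lay between −0.07 and 0.06.

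All 37 genes passed the filter on low counts, and the smallest count of any of them in any library was 88. None of the 37 changed at an adjusted p under 0.05 in edgeR, and 0 of all 16394 genes did (0%). The smallest adjusted p of a member was 0.258, and the standard errors of the log2 fold changes lay between 0.16 and 0.47. At an unadjusted p under 0.05, 4 of the 37 (10.8%) were higher in knockdown, namely RFC5, MCM5, RFC2 and LIG1, where 8.17% of all tested genes were. The same threshold gave 0 lower members, against 7.36% of all genes. The share of higher members was thus near that of all genes. With library size alone in place of the TMM factors, which shifts the median of all genes to −0.13, the split was 0 higher and 1 lower (CCNE2), against 4.45% and 11.0% of all genes. It was the same on the log2(FPKM + 1) scale, against 5.50% and 10.7% of 12343 genes. DESeq2, run without the low-count filter, gave 0 members past its adjusted threshold, where 1.52% of 31570 genes passed. At the unadjusted one it gave 4 higher and 1 lower, against 4.90% and 4.02% of the 31570. Low-count genes are among these, so the shares cannot be set beside those of the 16394.

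The fitted log2 fold changes ran from −0.75 for CCNE2 to 0.75 for LIG1, with 28 of 37 positive and a median of 0.24, against −0.00072 for all genes tested. With library size alone 25 were positive, and on the FPKM scale 24. Without knockdown replicate 1 the median was 0.04 and 22 were positive. All 3 knockdown libraries were above all 3 controls for 5 members (13.5%, against 11.3% of all genes): MCM5, RFC2, RFC5, FEN1 and GINS3. All 3 were below for 1 member, CCNE2 (2.70%, against 11.2%). These calls depend on the scale, which was checked after seeing the data, and MCM5 alone stood apart on every scale tried. With library size alone MCM5 was above and CCNE2 below (7.24% and 15.4% of all genes), and in FPKM MCM5 and RFC2 were above and CCNE2 below (8.70% and 12.6% of 12343 genes). After the GC correction MCM5, RFC2, RFC5, CDC6, LIG1 and POLE2 were above and 0 members below, against 17.8% and 9.42% of all genes.

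**Figure D1:**
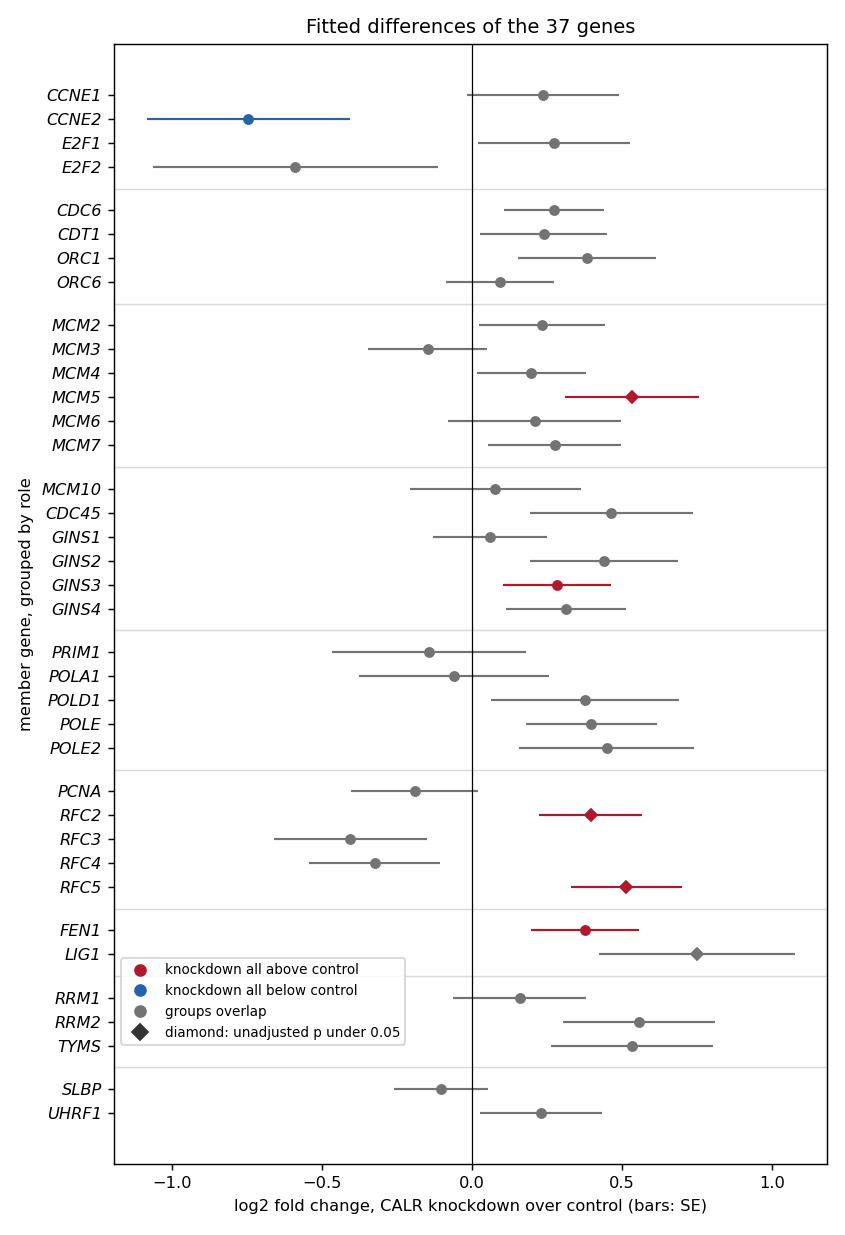
Fitted log2 fold change of CALR knockdown over control for each of the 37 genes (horizontal axis; bars are the SE, 3 against 3 libraries), grouped by role. Colours mark genes whose knockdown libraries all lie on one side of the controls in TMM-scaled CPM, and diamonds mark an unadjusted p under 0.05, which RFC5, MCM5, RFC2 and LIG1 reached.

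The 3 knockdown libraries differed widely among themselves. Knockdown replicate 1, which kept the most CALR, was above the control mean for 35 of the 37 genes, with a median difference of 0.58 on the log2 scale. Replicates 2 and 3 were above it for 18 and 19 genes, with medians of −0.0027 and 0.0032. Knockdown replicate 1 was the highest of all 6 libraries for 31 of the 37 genes (83.8%), where it was the highest for 18.8% of all genes tested, and for 28 of the 37 with library size alone or in FPKM. Its own difference from control rose with GC content. After each library's GC trend was removed, its median was 0.60 over the members and 0.08 over all genes, against 0.58 and −0.02 before. It was then the highest library for 34 of the 37, a count not made for all genes on that scale.

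**Figure D2:**
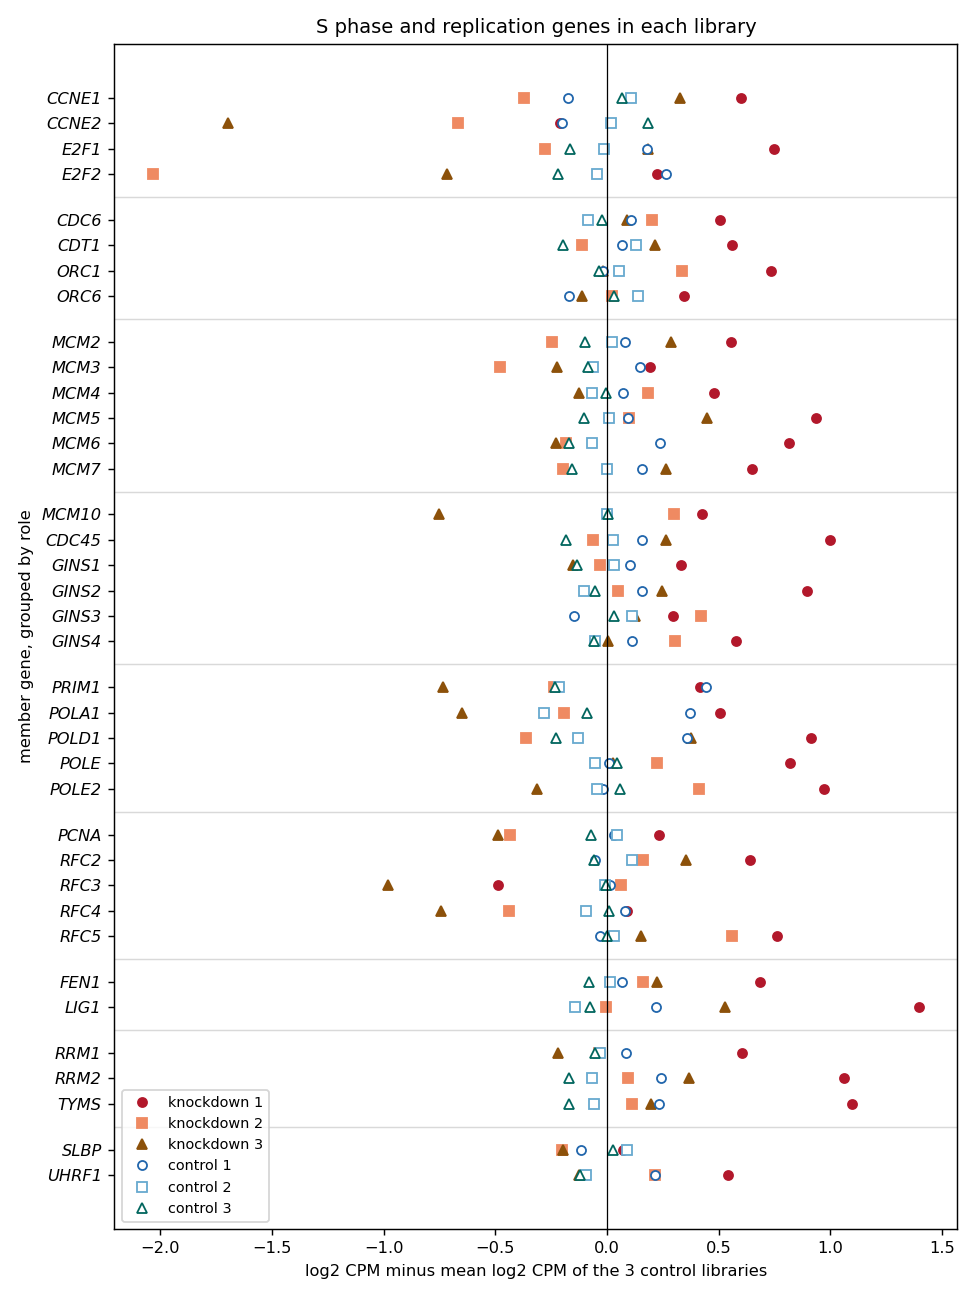
Each library's log2 CPM minus the mean log2 CPM of the 3 controls (horizontal axis) for the 37 genes, in rows grouped by role. Filled symbols are knockdown and open symbols control libraries. Knockdown replicate 1 is the rightmost point in 31 rows, while replicates 2 and 3 lie on both sides of the controls.

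The G1/S regulators went in both directions. CCNE1 and CCNE2 encode the E cyclins, which activate CDK2 at the start of S phase. CCNE2 was at 21.6, 15.7 and 7.65 CPM in the knockdown libraries and at 21.7, 25.2 and 28.4 CPM in the controls, in replicate order. The groups do not overlap, but replicate 1 lies just under the lowest control, and most of the difference comes from replicate 3. Its log2 fold change, −0.75 ± 0.34 (SE), had an adjusted p of 0.333 in edgeR, and it was −0.42 without knockdown replicate 3 and −1.10 without replicate 1. CCNE2 has the lowest GC content of the 37, at 38.5%, shares 37.1% of its exon bases with genes on the other strand, among them INTS8, and was at −0.39 after the GC correction, where its groups overlap with replicate 1 above all controls (0.31 on the log2 scale against the control mean). CCNE1 had a log2 fold change of 0.24 ± 0.25. E2F1 and E2F2 encode activator E2Fs. E2F1 was at 113, 55.6 and 76.6 CPM in knockdown and 76.3, 66.8 and 60.1 CPM in control libraries, and its log2 fold change of 0.27 was −0.03 without knockdown replicate 1. E2F2, described because of its spread, was at 10.7, 2.19 and 5.53 CPM against 11.0, 8.84 and 7.82 CPM. It was thus low in replicates 2 and 3 and in the control range in replicate 1, and its log2 fold change of −0.59 ± 0.47 became −1.25 without that library and −0.18 without replicate 2.

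Of the 4 licensing genes all had positive log2 fold changes, between 0.09 for ORC6 and 0.38 for ORC1, and 0 passed either threshold. ORC1, the largest subunit of the origin recognition complex, was at 20.2, 15.3 and 11.99 CPM in knockdown and 11.98, 12.6 and 11.9 CPM in control libraries. Replicates 1 and 2 were above the controls and replicate 3 was among them. CDC6, which helps to load the MCM ring, and CDT1, its partner, were at 0.27 ± 0.17 and 0.24 ± 0.21. ORC6 turned to −0.04 with library size alone.

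Among the helicase genes MCM2 to MCM7, whose products form a ring with a copy of each subunit, 5 had positive log2 fold changes and MCM3 a negative one. MCM5 was at 91.6, 51.2 and 65.2 CPM in knockdown and 51.0, 48.1 and 44.6 CPM in control libraries. The groups do not overlap, though knockdown replicate 2 was only just above control replicate 1. Its log2 fold change of 0.53 ± 0.22 had an adjusted p of 0.303 in edgeR. It was 0.28 without knockdown replicate 1, and 0.71 without replicate 2, where edgeR's adjusted p was 0.033. MCM2 (0.23 ± 0.21), MCM4 (0.20 ± 0.18), MCM6 (0.21 ± 0.29) and MCM7 (0.28 ± 0.22) overlapped between groups, with the highest value of each in knockdown replicate 1. MCM6 was at −0.22 without that library. MCM3 was at 237, 149 and 177 CPM against 230, 198 and 195 CPM (−0.15 ± 0.20). Per length, the ring's transcripts were far from equal in the controls, at 63.1 ± 4.07 FPKM for MCM3, 51.2 ± 4.21 for MCM7, 34.1 ± 1.37 for MCM2, 26.3 ± 0.883 for MCM4, 15.8 ± 1.95 for MCM6 and 13.2 ± 0.549 for MCM5 (SD, n = 3). Each step in that order exceeded the summed SDs, that from MCM6 to MCM5 only just. The SDs cover only the spread between libraries, not the gene lengths used for FPKM or reads from overlapping genes.

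The genes that activate the helicase had 6 positive log2 fold changes of 6, between 0.06 for GINS1 and 0.46 for CDC45. CDC45, which travels with the MCM ring, was at 58.8, 28.2 and 35.4 CPM in knockdown and 32.8, 30.1 and 25.9 CPM in control libraries. Replicate 1 stood far above all others and replicate 2 was within the control range, and without replicate 1 the log2 fold change of 0.46 ± 0.27 fell to 0.11. GINS3 was at 25.5, 27.9 and 22.7 CPM against 18.8, 22.5 and 21.3 CPM. Its groups do not overlap, replicate 3 lying just above the highest control, but they do in FPKM (replicate 3 at 7.94, controls at 7.45, 9.25 and 8.90) and after the GC correction. EdgeR gave 0.28 ± 0.18 on the log2 scale (adjusted p = 0.460). GINS2 and GINS4, of the same complex, were at 0.44 ± 0.25 and 0.31 ± 0.20. MCM10, which helps to activate the loaded helicase, had 41.4 and 38.0 CPM in replicates 1 and 2 but 18.3 CPM in replicate 3, where the controls lay between 30.8 and 30.9 CPM, so its log2 fold change of 0.08 averages opposite differences. MCM10 and GINS1 turned negative with library size alone.

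The polymerase genes had log2 fold changes of both signs, all within overlapping groups. POLE and POLE2, subunits of the leading-strand polymerase epsilon, had log2 fold changes of 0.40 ± 0.22 and 0.45 ± 0.29, and POLD1, the catalytic subunit of polymerase delta, 0.38 ± 0.31. POLE2 was at 53.6, 36.3 and 21.9 CPM in knockdown and 27.0, 26.5 and 28.4 CPM in control libraries. Replicates 1 and 2 were above all controls and replicate 3 below them. POLE2 has a GC content of 39.8%, and after the GC correction its log2 fold change was 0.75. PRIM1 and POLA1, of the primase and polymerase alpha that start each strand, were at −0.14 ± 0.32 and −0.06 ± 0.32, and both were at 0.14 after the GC correction.

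In the clamp and clamp loader group, log2 fold changes were positive for RFC2 and RFC5 and negative for RFC3, RFC4 and PCNA. PCNA, the clamp, is put on DNA by a loader made of RFC1 with RFC2, RFC3, RFC4 and RFC5. RFC5 was at 95.0, 82.6 and 62.3 CPM in knockdown and 54.9, 57.2 and 56.0 CPM in control libraries. All knockdown values were above all control values on this scale, but in FPKM replicate 3 (21.22) lay among the controls (21.15, 22.88 and 22.76). EdgeR's log2 fold change was 0.51 ± 0.19 (adjusted p = 0.258), with a range of 0.37 to 0.68 with 1 library left out. RFC2 was at 134, 96.5 and 110 CPM against 83.1, 93.3 and 83.0 CPM. These groups do not overlap either, except with library size alone, and the log2 fold change was 0.40 ± 0.17 (adjusted p = 0.317 in edgeR). RFC3, in contrast, was at 28.0, 41.0 and 19.9 CPM in knockdown and 39.7, 39.0 and 39.1 CPM in control libraries. It was low in replicates 1 and 3 and slightly above the controls in replicate 2, and its log2 fold change was −0.41 ± 0.25 (−0.71 without replicate 2, where edgeR's adjusted p was 0.037, and −0.21 after the GC correction). RFC4 (−0.32 ± 0.22) and PCNA were below all controls in replicates 2 and 3 and above them in replicate 1. For RFC4 that excess was slight, at 93.5 CPM against 93.1 CPM in control replicate 1. In FPKM knockdown replicate 1 lay within the control range for RFC4, at 51.79 against 55.25, 50.77 and 55.44. PCNA had 268, 169 and 163 CPM in knockdown and 233, 235 and 217 CPM in control libraries. An exact permutation test (two-sided, on log2 CPM) can give no p below 0.1 with these libraries. It gives that value whenever the groups do not overlap, as for RFC2, RFC5, MCM5, GINS3, FEN1 and CCNE2, so it adds nothing to the overlap. Over all genes, groups stood apart for 11.3% (higher) and 11.2% (lower).

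FEN1 and LIG1, which trim and join Okazaki fragments, both had positive log2 fold changes. FEN1 was at 227, 158 and 165 CPM in knockdown and 148, 143 and 134 CPM in control libraries, with no overlap and a log2 fold change of 0.37 ± 0.18 (adjusted p = 0.356 in edgeR). Replicate 3 fell within the control range in FPKM, at 60.2 against 61.1, 61.1 and 58.2, and also after the GC correction. LIG1, DNA ligase I, was at 74.9, 28.4 and 41.0 CPM against 33.1, 25.8 and 26.9 CPM. Its groups overlap, because replicate 2 lies below control replicate 1. The log2 fold change of 0.75 ± 0.33 (adjusted p = 0.318 in edgeR) was 0.28 without knockdown replicate 1 and 1.02 without replicate 2, where the adjusted p was 0.033.

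After LIG1, the nucleotide-supply genes TYMS and RRM2 stood furthest above the controls in knockdown replicate 1. RRM2, the regulated subunit of ribonucleotide reductase, was at 301, 154 and 186 CPM in knockdown and 170, 138 and 128 CPM in control libraries. Replicate 1 was the highest and replicate 2 was below control replicate 1, and the log2 fold change was 0.56 ± 0.25 (0.23 without replicate 1). RRM2 shares 20.2% of its exon bases with another gene on the same strand. TYMS, thymidylate synthase, was at 0.53 ± 0.27 (0.15 without replicate 1), and 46.6% of its exon bases also lie in genes of the other strand, chiefly ENOSF1. Other members overlap as well, among them PRIM1, which shares 16.2% of its exon bases with genes on the same strand. MCM2 and GINS4 share 23.6% each, GINS3 10.9% and RFC5 10.6% with genes on the other strand. The strand setting of the counting was not given in the sources used here, so reads of such overlapping genes cannot be told apart. RRM1, the large reductase subunit, was at 0.16 ± 0.22 and turned to −0.0086 on the log2(FPKM + 1) scale. UHRF1, which keeps DNA methylation through replication, was at 97.6, 77.7 and 61.4 CPM against 77.6, 62.7 and 61.6 CPM, overlapping between the groups (0.23 ± 0.21). SLBP, which binds histone mRNA, was at −0.10 ± 0.16.

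Because both members of a ratio are read in the same library, ratios between members do not depend on how libraries were scaled. Of all 666 pairs of members, the ratio of CPM did not overlap between groups for 201 (30.2%), and for 23 of the 67 pairs within a role (34.3%). Of all pairs of the 16268 tested genes above 0 in every library, 22.5% did not overlap. After the GC correction the count of member pairs was 202, of which 149 were shared. Pairs of all genes were not counted on that scale, so the 22.5% is no background for the 202. The pairs that follow were chosen after their values were seen, and their ratios are descriptions without a test. The ratio of RFC5 to RFC4 was 1.02, 1.28 and 1.19 in the knockdown libraries, in replicate order, against 0.590, 0.694 and 0.632 in the controls. That of RFC5 to RFC3 was 3.40, 2.02 and 3.14 against 1.38, 1.47 and 1.43. Both ratios were thus higher in each knockdown library than in any control, also in replicate 2, whose median over all members was at the control level. The ratio of RFC2 to RFC4 did not overlap either. That of RFC5 to RFC2 did overlap, at 0.707, 0.856 and 0.565 against 0.660, 0.613 and 0.675, as did that of RFC4 to RFC3. RFC1, the remaining loader subunit, was not among the pairs. The ratio of MCM5 to MCM3 was 0.387, 0.345 and 0.368 in knockdown and 0.222, 0.243 and 0.228 in control libraries, which is 1.59-fold higher on average and 1.54-fold after the GC correction. The ratio of FEN1 to PCNA was 0.848, 0.934 and 1.02 against 0.636, 0.606 and 0.617. These 2 ratios differed little between libraries of a group, while the levels of their genes were highest in knockdown replicate 1. The ratio of CCNE1 to CCNE2 was 1.77, 1.24 and 4.12 against 1.02, 1.07 and 0.928, and that of E2F1 to E2F2 was 10.6, 25.4 and 13.9 against 6.97, 7.55 and 7.69. Both were higher in each knockdown library, by amounts that differed widely between them. The ratios of RFC2 to RFC3 and of LIG1 to FEN1 overlapped between groups, though that of RFC2 to RFC3 did not after the GC correction. The ratio of CCNE2 to another member did not overlap for 29 of 36 partners, the highest count among the 37, and PCNA, E2F2 and RFC4 followed with 25 each.

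**Figure D3:**
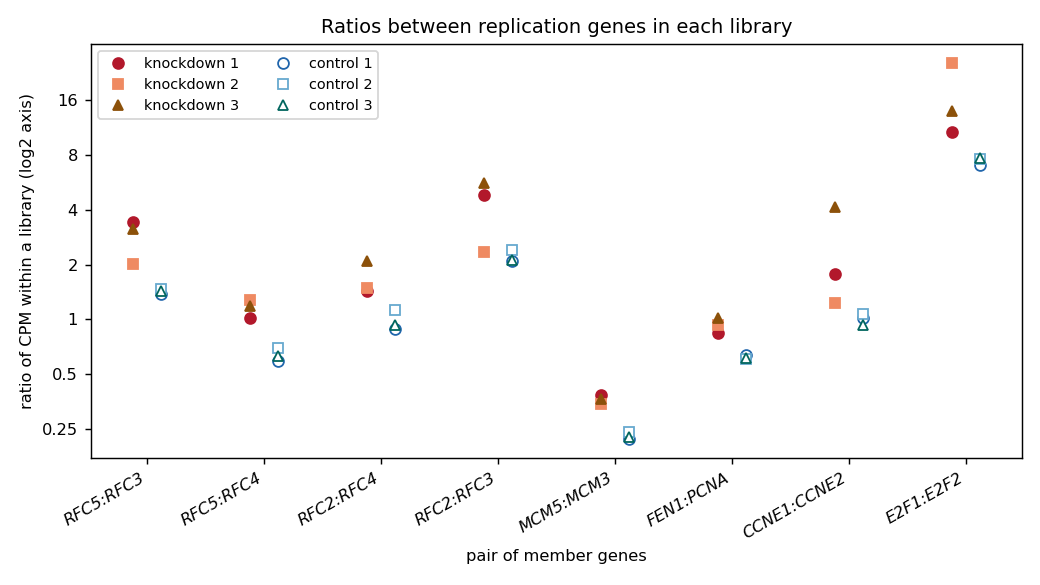
Ratio of CPM between 2 member genes within each library, on a log2 axis, for 8 pairs. Filled symbols are knockdown and open symbols control libraries. RFC5:RFC4 lies between 1.02 and 1.28 in knockdown and between 0.590 and 0.694 in control libraries, while RFC2:RFC3 overlaps in these values, which carry no GC correction.

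GC content moved with part of these values. Across the 37 genes, whose GC content had a median of 49.9%, the difference from control went with GC content at Pearson's r of 0.41, −0.14 and 0.64 in the 3 knockdown libraries. The genes share each library, so these are descriptions. In replicate 3 the genes lowest against control were CCNE2 and RFC3, with GC contents of 38.5% and 41.3%, and LIG1, at 58.5%, was the highest. After the GC correction 7 members (18.9%) were higher at an unadjusted p under 0.05 and 0 lower, where 14.1% of all genes were higher, and the median over the members was 0.26 with that of all genes at 0.08. What part GC content had in the differences of single genes was not tested beyond that correction.

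**Figure D4:**
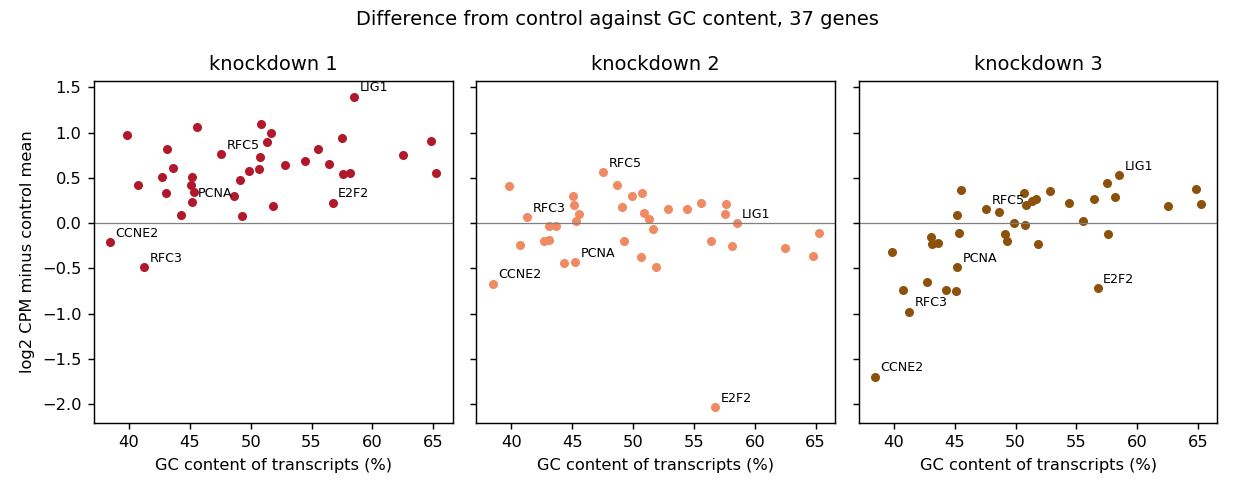
Log2 CPM minus the control mean of each of the 37 genes (vertical axis) against the GC content of its transcripts in percent, in the 3 knockdown libraries. The points rise with GC content in replicate 3 (r of 0.64) and less in replicate 1 (r of 0.41), and do not in replicate 2 (r of −0.14).

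Other genes of replication followed the members only in part. Of 73 further replication, repair and G1/S genes, all tested, the unadjusted threshold gave 4 higher (5.48%) and 1 lower (1.37%), against 8.17% and 7.36% of all genes. Both shares were below those of all genes. None passed the adjusted threshold in edgeR, and the median was 0.06. CHTF8, of the alternative clamp loader that serves sister-chromatid cohesion, was at 136, 112 and 133 CPM in knockdown and 78.4, 78.5 and 80.6 CPM in control libraries (log2 fold change 0.68 ± 0.15, adjusted p = 0.164 in edgeR). It had the smallest adjusted p of the 73, and each of its knockdown libraries was well above the controls. TIMELESS, of the fork protection complex, was at 0.65 ± 0.20, the maintenance methyltransferase DNMT1 at 0.40 ± 0.17, and the histone chaperone ASF1B at 0.57 ± 0.25. ORC5, another subunit of the origin recognition complex, was lower in all 3 knockdown libraries (−0.48 ± 0.17). In knockdown replicate 3 the median of the 73 was −0.27, and −0.08 after the GC correction. Before the correction that library was the lowest of the 6 for 38 of the 73, and for 3814 of all 16394 genes.

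G2/M genes, which act in mitosis, had a different pattern over the libraries. Of 24 listed, the medians against control were 0.91, 0.44 and −0.02 in knockdown, in replicate order, against 0.42, −0.21 and −0.19 in control, while 10 (41.7%) were higher at an unadjusted p under 0.05, against 8.17% of all genes. All 24 were above the control mean in knockdown replicate 2, where 18 of the 37 S phase genes were. Of these 2 lists, knockdown replicate 1 was high for both and replicate 2 for G2/M genes only in this count. Of the 73 other replication genes, 53 were also above the control mean in knockdown replicate 2 (median 0.14). The same held for 8159 of all 16394 genes. Control replicate 1 was itself above the control mean for 23 of the 24, so the controls differ among themselves by as much as replicate 2 differs from them. The difference between the 2 lists was not tested. MYC, a known driver of G1/S genes, was lower in all 3 knockdown libraries, at 51.2, 40.6 and 61.3 FPKM against 83.4, 104 and 102 FPKM (log2 fold change −0.78), and did not pass the adjusted threshold in edgeR.

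**Figure D5:**
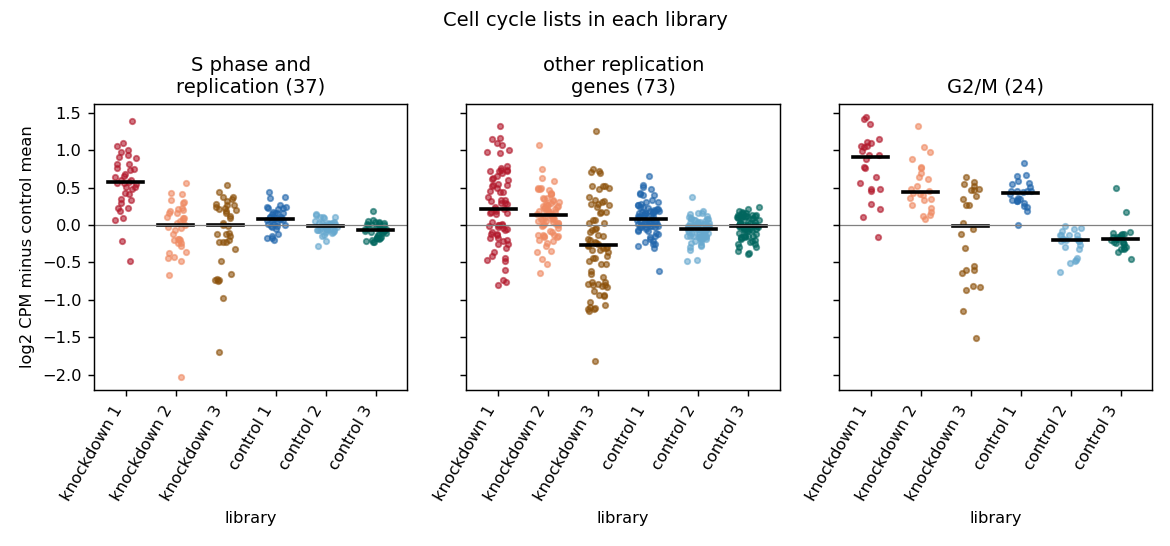
Log2 CPM minus the control mean (vertical axis) of each gene of 3 lists in the 6 libraries, with bars at the medians. The S phase and replication genes have a median of 0.58 in knockdown replicate 1 and medians near 0 in replicates 2 and 3, while the G2/M genes are at 0.91, 0.44 and −0.02.

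Single libraries changed these counts. Without knockdown replicate 1, the unadjusted threshold gave 0 higher and 4 lower members (CCNE2, E2F2, PCNA and RFC4), against 5.33% and 5.39% of all genes. Without replicate 2, 14 were higher (37.8%) and 1 lower, against 17.9% and 17.7% of all genes, and LIG1 and MCM5 (higher) and RFC3 (lower) passed edgeR's adjusted threshold, as did 15.5% of all genes. Without replicate 3, 12 were higher (32.4%) against 7.83% of all genes. Without any one control library, 0 members were called at either threshold, where 11.1%, 8.48% and 7.23% of all genes were at an unadjusted p under 0.05 without control replicates 1, 2 and 3.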

How the data were processed

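RNA sequencing of 3 CALR knockdown and 3 control libraries was analysed from the deposited count table (whole reads per gene) and the deposited FPKM table, which the authors normalized per gene length and library and rounded. The tools FastQC 0.9.5 and TopHat2 and the build GRCh38 are named, per the submitters' processing notes; the counter, annotation and strand setting were not given in the sources used here. Genes were kept with filterByExpr in edgeR 4.0.16 (R 4.3.3), scaled with TMM factors and tested with the quasi-likelihood F-test without covariates. P-values were adjusted by Benjamini-Hochberg over all 16394 genes with a threshold of 0.05. The SE is the size of the log2 fold change over the square root of F. Per-library log2 CPM values have a prior count of 2. The edgeR and limma steps were run on simulated counts with the same dispersion in all genes and both groups and no GC trend. That checks the code, not how the tests behave on these libraries. Alternatives used DESeq2 1.42.0, limma 3.58.1 on voom values and on log2(FPKM + 1) and log2(FPKM + 0.1), other filters and scaling, a replicate block, and GC content from GENCODE 29 transcripts, whose trend per library was removed with a spline of 6 degrees of freedom. Locations and overlaps also come from GENCODE 29. Values in every library are given for members at an unadjusted p under 0.05, with groups that do not overlap, or with the largest absolute log2 fold change of their role. E2F1, E2F2, MCM3, MCM10, PCNA and RFC3 were added after their values were seen. The members, lists and rules were chosen with earlier results of these data known.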

Additional observations from a re-analysis of the deposited data

How the results depend on the processing

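Over 18 alternatives, the 37 log2 fold changes gave 666 values, of which 628 kept direction and side of the adjusted threshold, 4 passed it (LIG1 without a low-count filter, and LIG1, MCM5 and RFC3 without knockdown replicate 2) and 34 changed sign, in 8 genes. The cause was not tested. With library size alone MCM10 was at −0.033, GINS1 at −0.071 and ORC6 at −0.041, and MCM10 was at −0.0099 with limma-voom. On log2(FPKM + 1), with or without the filter, MCM10, RRM1, GINS1 and ORC6 were at −0.099, −0.0086, −0.067 and −0.038, and on log2(FPKM + 0.1) at −0.13, −0.0097, −0.076 and −0.039. PRIM1 and POLA1 were both at 0.14 after the GC correction. With 1 library left out, MCM6 ran from −0.22 to 0.41, MCM10 from −0.13 to 0.38, RRM1 from −0.13 to 0.33, GINS1 from −0.091 to 0.17, ORC6 from −0.046 to 0.20, E2F1 from −0.032 to 0.49, PRIM1 from −0.50 to 0.12 and POLA1 from −0.43 to 0.19.

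The count of all genes past the adjusted threshold, 0 in the reported fit with 2546 at an unadjusted p under 0.05, was 481 with DESeq2, 988 without a low-count filter, 12 after the GC correction, 5 on log2(FPKM + 1) without a filter and 0 to 2604 with 1 library left out. That of members was 1 without the filter and 0 to 3 with 1 library left out. Members at an unadjusted p under 0.05, 4 in the reported fit, numbered 1 with library size alone and in each of the 3 FPKM fits, 2 with limma-voom, 8 without the low-count filter, 7 after the GC correction and 0 to 15 with 1 library left out. Over all genes that threshold held for 15.5% in the reported fit and with library size alone, and for 16.3% with limma-voom. It held for 12.3% without the filter and 20.7% after the GC correction. The share was 10.9% to 16.2% in the FPKM fits and 7.23% to 35.6% with 1 library left out. The other replication genes, 5 in the reported fit, gave 13 without the filter, 3 among genes at 1 CPM or more in every library, 9 after the GC correction, 3 on log2(FPKM + 0.1) and 1 to 19 with 1 library left out. Members whose groups do not overlap, 6 in TMM-scaled CPM, numbered 2 with library size alone, 3 in FPKM and 6 after the GC correction, scales chosen for this count after seeing the data. The members' median ran from 0.04 to 0.38 with 1 library left out.

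The libraries share only replicate numbers. Same-numbered libraries deviated from their group means with correlations over genes of 0.20, −0.12 and −0.22, and 1 of the 3 knockdown libraries correlated best with its own number. With the replicate block 0 genes passed the adjusted threshold, the unadjusted threshold gave 3 higher and 1 lower member, the members' median was 0.22 and MCM10 was at −0.0043. The replicate block with the GC correction gave 102 genes past the adjusted threshold, PRIM1 at 0.078 and POLA1 at 0.082. It gave 9 members and 15 other replication genes at an unadjusted p under 0.05, where 20.0% of all genes were. The smallest member count was 88, and what part read depth had in the spread between libraries was not tested.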
